A study of Mus musculus with 12 samples.

Results

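Immediate early genes are transcribed within minutes of a stimulus, from promoters on which the transcription factors that drive them are already in place, and many of their mRNAs and proteins are short-lived. Serum, growth factors, stretch, heat and injury switch them on through kinase cascades that act on Srf with its ternary complex partners, on Creb-type factors and on NF-kB. Enzymatic dissociation of a solid tissue is itself such a stimulus, so these genes are also read as the dissociation response in single-cell work. Described here are 46 of them, listed by symbol with earlier results of these data known, out of 55418 genes in the table. They code for Fos and Jun family factors, Egr and Nr4a factors, Kruppel-like factors, early response proteins, inhibitors that shut the response down, growth arrest and survival proteins, secreted products and a few genes linked to glucocorticoids, the clock and the cytoskeleton. At least 20 counts over all cells were found for 42 of the 46, against 9768 of all genes, and Egr3, Nr4a3, Il6 and Ccl2 had 0 counts in every cell.

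The cells were single GFP-positive cells from the uninjured, untreated Achilles tendons of mice on a C57BL/6 background, 6 labelled Tnmd-/- ScxGFP+ and 6 labelled Tnmd WT ScxGFP+. All 12 carried the ScxGFP reporter, a transgene in which regulatory elements of the tendon transcription factor Scx drive GFP, and all went through 8 hours of collagenase, filtration and picking by micromanipulator before lysis, so no cell without digestion stands beside them. Tnmd, which codes for the tendon membrane protein tenomodulin, is deleted in every cell of the Tnmd-/- mice and lies on the X chromosome, and in the study the WT group as a whole mixed hemizygous males with homozygous and heterozygous females. How many tendons each genotype's cells came from was not clear from the sources used here, no label ties a cell to an animal, and the age and sex of the animals behind each cell were not given in the sources used here. Each genotype was therefore taken as 1 sample. No test was made between genotypes, and all values are descriptions of these cells. An annotation bar on the study's heat map marks cells 9, 10 and 20 of the Tnmd-/- and cells 4, 5 and 10 of the WT genotype as less degraded. The other 6 are marked as more degraded.

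Promoter sequence gives a first view of what the genes share. In the RefSeq promoter windows of GRCm38.p6, 250 bases upstream of each start were searched for 7 motifs on both strands (the TATA box on the given strand only), with 53 windows for 38 of the 46 genes and 32851 windows in all. Fosl1, Egr1, Egr3, Ier2, Klf10, Myc, Cebpd and Ccl2 had no window, so their promoters were not searched. Sequence farther upstream was not searched for any gene. The core of the cAMP response element, TGACG, was found in 54.7% of the windows of these genes, in 17.8% of all windows and in 27.7% of the windows of genes with at least 20 counts. The site of the Egr factors, GCGNGGGCG, stood in 20.8%, 4.70% and 8.73%, and the NF-kB site in 13.2%, 3.90% and 4.50%. The whole cAMP response element, TGACGTCA, which contains this core, was found for Btg2, Dusp1 and Maff, and the CArG box bound by Srf for Egr2 and Zfp36. The whole element stood in 5.66% of the windows, against 1.55% of all and 2.79% of those with counts. For the CArG box these shares were 9.43%, 1.47% and 1.16%. Its 5 windows came from these 2 genes, with neighbouring or overlapping windows for Egr2. The AP-1 site, TGANTCA, to which Fos and Jun dimers bind, stood in 7.55% of the windows, against 6.75% of all and 4.53% of those with counts. The TATA box, TATAAA, stood in 13.2%, against 7.59% and 4.13%. A match describes letters and does not show that a factor was bound. The 170 bases before the start are printed for 8 genes whose levels the comparisons below turn on, with matches to the cAMP response element or its core, the Egr site, the CArG box, the AP-1 site and the NF-kB site in capitals. Where a motif lies on the other strand its reverse complement is in capitals.
Fos, chr12:85473720-85473889, plus strand, core elements: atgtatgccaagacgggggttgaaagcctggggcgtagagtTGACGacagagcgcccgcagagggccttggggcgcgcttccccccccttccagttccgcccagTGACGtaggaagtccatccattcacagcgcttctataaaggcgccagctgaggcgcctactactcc
Fosb, chr7:19310046-19310215, minus strand, core element and Egr site: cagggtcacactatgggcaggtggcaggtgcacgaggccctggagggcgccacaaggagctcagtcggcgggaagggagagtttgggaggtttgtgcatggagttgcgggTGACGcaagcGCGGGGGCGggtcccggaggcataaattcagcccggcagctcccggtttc
Zfp36, chr7:28379229-28379398, minus strand, Egr site and CArG box: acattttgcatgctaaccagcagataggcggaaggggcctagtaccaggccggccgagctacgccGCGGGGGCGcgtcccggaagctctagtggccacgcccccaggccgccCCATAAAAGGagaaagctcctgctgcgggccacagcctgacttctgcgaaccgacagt
Atf3, chr1:191183334-191183503, minus strand, core element: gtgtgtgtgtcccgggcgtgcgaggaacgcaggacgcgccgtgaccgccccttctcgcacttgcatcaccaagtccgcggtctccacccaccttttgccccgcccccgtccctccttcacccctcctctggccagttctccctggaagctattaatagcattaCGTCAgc
Klf9, chr19:23141056-23141225, plus strand, AP-1 site and core element: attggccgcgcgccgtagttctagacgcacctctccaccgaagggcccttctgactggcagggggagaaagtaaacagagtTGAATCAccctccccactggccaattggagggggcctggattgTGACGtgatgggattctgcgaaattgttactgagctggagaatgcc
Btg2, chr1:134079156-134079325, minus strand, whole element and Egr site: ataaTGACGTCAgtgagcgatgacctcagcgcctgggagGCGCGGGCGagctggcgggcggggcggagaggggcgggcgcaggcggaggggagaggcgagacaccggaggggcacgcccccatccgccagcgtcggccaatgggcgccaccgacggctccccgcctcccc
Cxcl1, chr5:90891075-90891244, plus strand, NF-kB site: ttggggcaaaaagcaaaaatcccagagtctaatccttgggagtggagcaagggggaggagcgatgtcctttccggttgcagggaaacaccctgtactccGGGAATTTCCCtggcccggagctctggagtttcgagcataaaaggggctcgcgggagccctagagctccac
Gadd45a, chr6:67037408-67037577, minus strand, none of these motifs: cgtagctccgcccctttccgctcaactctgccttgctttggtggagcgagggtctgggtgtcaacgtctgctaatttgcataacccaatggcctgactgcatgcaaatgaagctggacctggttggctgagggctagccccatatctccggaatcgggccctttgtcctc

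The other shared feature is the AU-rich element of the 3′ UTR, the sequence at which Zfp36 and Zfp36l1 bind and speed mRNA decay. In the longest 3′ UTR of each gene, the 7-letter element TATTTAT occurred in 27 of the 46 genes (58.7%), against 32.3% of 8143 genes with at least 20 counts and an annotated 3′ UTR. The median 3′ UTR lengths were 1191 and 1274 bases. The 9-letter element TTATTTATT, which contains the 7-letter one, occurred in 10 genes (21.7%), against 8.84%. Genes with TATTTAT were seen (at least 10 counts) in 4 cells at the median and those without it in 6. Over all genes with counts these medians were 3 and 2. For 5 of these 10 genes the first 9-letter element is printed with 8 bases on each side, in the sense of the mRNA and with the element in capitals. Zfp36 itself is among them.
Fos, chr12:85477105-85477129, plus strand: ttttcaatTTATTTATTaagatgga
Zfp36, chr7:28376953-28376977, minus strand: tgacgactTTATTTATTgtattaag
Dusp1, chr17:26506161-26506185, minus strand: gctggtccTTATTTATTtaacaccc
Ptgs2, chr1:150105792-150105816, plus strand: gaccatatTTATTTATTtatgtgaa
Cxcl1, chr5:90892617-90892641, plus strand: ttatgtatTTATTTATTccacaaag

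Tnmd-/- cells had totals of 892713 to 10333351 counts and WT cells of 4516036 to 13613080. The less degraded cells, at 6742665 counts or more, were all deeper than the more degraded ones, at 5991316 or fewer, so depth and degradation level cannot be told apart. Tnmd-/- cell 3 stood apart with 51.8% of its counts on mitochondrial genes, against 1.75% to 7.30% in the other 11 cells. Of 9 tendon genes, the matrix genes Dcn, Comp and Col1a2 were seen in all 12 cells and Thbs4 in 5 cells of each genotype. Fmod was seen in 3 Tnmd-/- and 5 WT cells, Col1a1 in 1 and 4 and Mkx in 1 and 2. Scx, whose reporter chose the cells, was seen in 3 of 6 WT and 0 of 6 Tnmd-/- cells. Tnmd, the deleted gene, had 8 counts over the 6 Tnmd-/- cells and was seen in none of them, against 10185 over the WT cells, where it was seen in 1. Of 5 endothelial markers Cdh5, Tie1 and Emcn were at 0 in every cell, of 6 immune markers only 1 had any count, and the summed levels were at most 30.1 and 0.871 CPM (counts per 1000000 of the cell's total). The mural list reached 641 CPM in WT cell 5 through Cspg4 alone, and the glial list 173 CPM in WT cell 10 and 37.7 CPM in Tnmd-/- cell 10, with Sox10 at 0 in every cell. The cartilage list (Acan, Col2a1, Sox9 and Chad) ran from 212 to 15508 CPM in the Tnmd-/- and from 3196 to 21719 CPM in the WT cells. Col2a1 was at 0 in every cell. The part of these signals in the values below was not tested.

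Every cell had some of these genes, in different combinations. Of a core of 12 genes of the dissociation response (Fos, Fosb, Jun, Junb, Egr1, Atf3, Ier2, Dusp1, Zfp36, Nr4a1, Btg2 and Socs3), however, 10 were seen in Tnmd-/- cell 9, 5 in cells 1 and 7, 1 in cells 10 and 20 and 0 in cell 3, while the WT cells had 4 to 9 of them. The number of genes seen ran from 9 in Tnmd-/- cell 3 to 32 in Tnmd-/- cell 9, and from 13 to 26 in the WT cells. The median was 18.5 for the Tnmd-/- genotype and 21.5 for WT, but 29 and 26 with 1 count as the limit. In each cell a larger share of the 46 was seen than of the 9768 genes: 69.6% against 32.0% in Tnmd-/- cell 9, 37.0% against 14.0% in Tnmd-/- cell 7 and 19.6% against 15.9% in Tnmd-/- cell 3. The 9768 had to have counts and the 46 did not. After every cell was thinned to 892713 counts the number seen ran from 9 to 27 in the Tnmd-/- and from 11 to 23 in the WT cells, and Tnmd-/- cell 9 still had the most. Most values were either 0 or large. Of 552 values (46 genes in 12 cells), 216 were 0, 97 were 1 to 9, 52 were 10 to 99 and 187 were 100 or more.

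**Figure D1:**
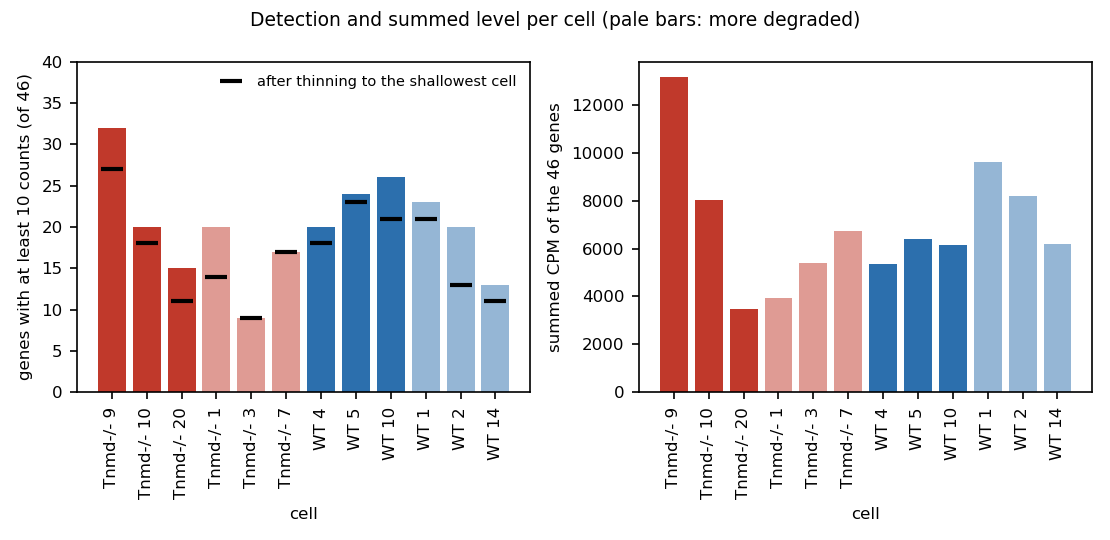
Bars show, for each of the 12 cells, the number of the 46 genes with at least 10 counts (left, black marks after thinning to 892713 counts) and the summed CPM of the 46 genes (right), with Tnmd-/- cells in red, WT cells in blue and more degraded cells in pale colour. Tnmd-/- cell 9 was highest in both, with 32 genes and 13142 CPM, and the other cells of the 2 genotypes overlapped.

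The summed level of the 46 genes ran from 3492 to 13142 CPM in the Tnmd-/- cells, median 6056, and from 5362 to 9614 CPM in the WT cells, median 6309. The ranges overlap and the medians lie close together, while the cells of a genotype differ widely. Between them 8 genes led in the 12 cells. Atf4 had the most counts in Tnmd-/- cells 10, 20 and 1 and WT cell 5, and Klf6 in Tnmd-/- cell 9 and WT cell 4. In the remaining cells the leader was Gadd45b (Tnmd-/- cell 3), Egr1 (Tnmd-/- cell 7), Sgk1 (WT cell 10), Klf4 (WT cell 1), Gadd45g (WT cell 2) and Ier3 (WT cell 14).

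**Figure D2:**
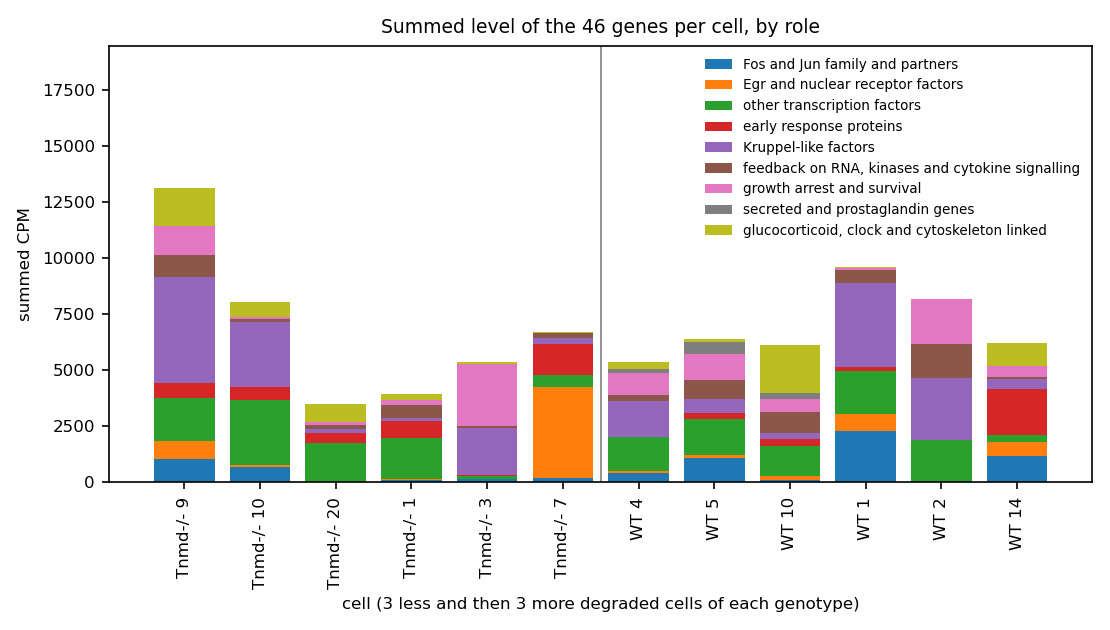
Stacked bars show the summed CPM of the 46 genes in each cell, split by the role of the gene, with the 3 less degraded cells of a genotype before the 3 more degraded ones. Kruppel-like factors made up 4703 CPM in Tnmd-/- cell 9, Egr and nuclear receptor factors 4030 CPM in Tnmd-/- cell 7, and secreted genes over 100 CPM only in WT cells 4, 5 and 10.

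Only 4 genes were seen in all 12 cells: Klf4 and Klf6, Kruppel-like transcription factors, Btg1, an antiproliferative partner of the deadenylase complex, and Sgk1, a kinase induced by serum and glucocorticoids. That is 9.52% of the 42 genes with at least 20 counts, against 2.18% of all such genes. At least 10 counts in at least 4 cells were found for 26 of the 42, or 61.9% against 32.7%. The median gene of the 42 was seen in 5 cells and had 48.0% of its counts in its top cell, against 2 cells and 79.6% over all genes. More than 50% of the counts came from 1 cell for 18 of the 42. Pooled over the 12 cells and divided by exon length, Atf4 had the highest level at 596 CPM per kilobase, followed by Ier3 at 317, Gadd45g at 306, Klf6 at 261 and Sgk1 at 161. By the median over cells, which weights them equally, the order was Atf4 (547), Ier3 (260), Klf6 (181), Gadd45g (139) and Sgk1 (55.1).

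**Figure D3:**
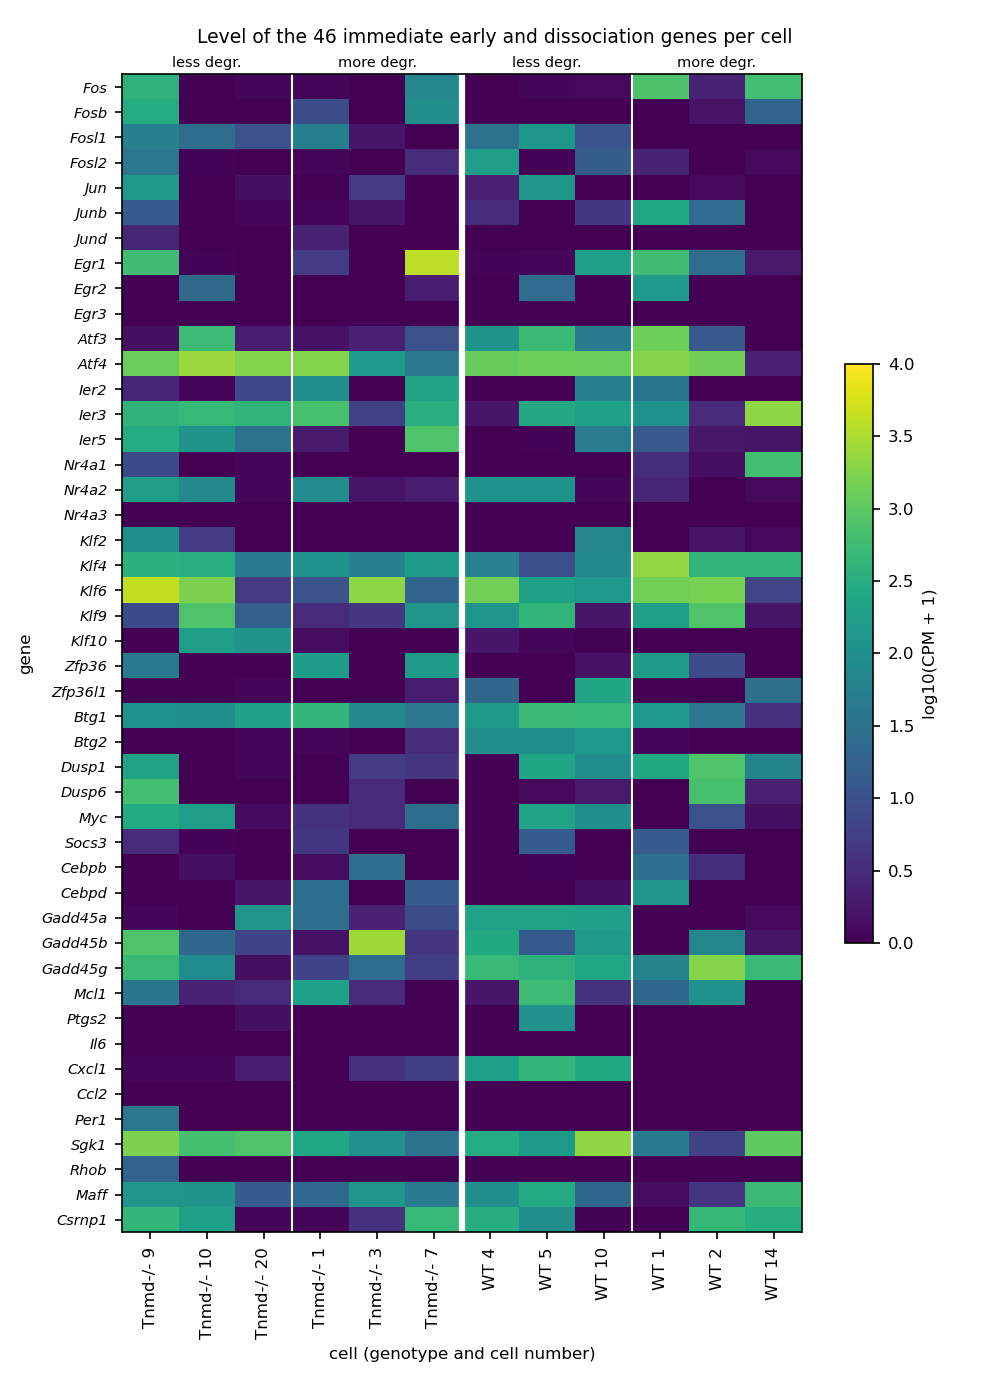
The heat map shows log10(CPM + 1) of each of the 46 genes (rows) in each of the 12 cells (columns), with a thick white line between the genotypes and thin lines between less and more degraded cells. Atf4, Klf4, Klf6, Btg1 and Sgk1 have signal across nearly all cells, most other genes are high in a few cells and at or near 0 in the rest, and Egr3, Nr4a3, Il6 and Ccl2 are empty.

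Among the Fos and Jun family, whose products pair as the AP-1 factor, no member was seen in every cell. Fos was seen in 4 cells, at 4647 counts (776 CPM) in WT cell 1, 4012 (388 CPM) in Tnmd-/- cell 9, 2843 (630 CPM) in WT cell 14 and 63 (70.6 CPM) in Tnmd-/- cell 7, and had at most 7 counts in each of the other 8. Fosb was also seen in 4 cells, with 3060 counts in Tnmd-/- cell 9, 82 and 44 in Tnmd-/- cells 7 and 1 and 83 in WT cell 14. Of these Fosb cells, 3 were also Fos cells, and WT cell 1, with the most Fos, had 0 Fosb counts. Jun was high in 2 cells, 1526 counts in Tnmd-/- cell 9 and 1542 in WT cell 5, and had 17 in WT cell 4 and at most 6 elsewhere. Fos and Jun were thus seen together in Tnmd-/- cell 9 only.

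Junb had 1422 counts in WT cell 1, 139 in Tnmd-/- cell 9, 117 in WT cell 2, and 46 and 28 in WT cells 10 and 4, with at most 1 in the other 7 cells. Jund was the weakest of the family, with 16 counts in Tnmd-/- cell 9, 8 in Tnmd-/- cell 1 and 0 in all others, and 52.6% of its exon bases overlap a gene on the opposite strand. The late Fos relatives behaved differently. Fosl1 was seen in 7 cells at 60 to 1577 counts, among them all 6 less degraded ones, and in Tnmd-/- cell 1 as the only more degraded cell. Fosl1 shares 57.2% of its exon bases with Ccdc85b on the opposite strand, so reads there may belong to either gene. Fosl2 had 2065 counts in WT cell 4, 385 in Tnmd-/- cell 9 and 196 in WT cell 10, and at most 9 elsewhere. The small Maf protein Maff, which lacks a transactivation domain, was broader, with 40 to 3372 counts in 10 cells, 15 in WT cell 2 and 2 in WT cell 1.

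Atf3, a stress-induced factor that binds the cAMP response element, was either high or near 0. It had 7773 counts (1297 CPM) in WT cell 1, 6456 (537 CPM) in WT cell 5, 5736 (557 CPM) in Tnmd-/- cell 10, 1474 and 611 in WT cells 4 and 10 and 58 in WT cell 2. The remaining 6 cells, 5 of them Tnmd-/-, had at most 8 counts each. None of the 6 Atf3 cells was one of the 4 Fosb cells.

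Egr1, a zinc finger factor induced through Srf, was seen in 6 cells: 6151 counts (595 CPM) in Tnmd-/- cell 9, 3596 (4028 CPM) in Tnmd-/- cell 7, 3499 (584 CPM) in WT cell 1, 2521 in WT cell 10, 124 in WT cell 2 and 22 in Tnmd-/- cell 1. The level in Tnmd-/- cell 7, the shallowest cell, was the second highest of any of the 46 genes in any cell, after Klf6 in Tnmd-/- cell 9. Egr2 was seen in WT cell 1 (849 counts), WT cell 5 (292) and Tnmd-/- cell 10 (237), all of them Atf3 cells, and had at most 1 count elsewhere. Of the orphan nuclear receptors, Nr4a1 was almost confined to 1 cell, with 2778 counts in WT cell 14, 70 in Tnmd-/- cell 9 and 14 in WT cell 1. Nr4a2 had 1733, 764 and 449 counts in Tnmd-/- cells 9, 10 and 1, 1398 and 1374 in WT cells 4 and 5 and 10 in WT cell 1. Nr4a1 and Nr4a2 were both seen in Tnmd-/- cell 9 and WT cell 1.

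Of the Kruppel-like factors, Klf4 and Klf6 were seen in 12 cells, Klf9 in 10, Klf2 in 3 and Klf10 in 2. Klf4 ran from 42 to 361 CPM in the Tnmd-/- cells and from 8.57 CPM in WT cell 5 to 2219 CPM in WT cell 1, so the genotypes overlap and WT cell 1 lies far above the rest. Klf6 was highest in Tnmd-/- cells 9 (4239 CPM), 10 (1612 CPM) and 3 (2077 CPM) and in WT cells 4 (1411 CPM), 1 (1395 CPM) and 2 (1573 CPM), at 196 and 137 CPM in WT cells 5 and 10, and under 20 CPM in the other 4. Klf6 was thus high in a subset of cells of both genotypes and of both degradation levels. Klf9, a target of the glucocorticoid receptor, reached 792 and 799 CPM in Tnmd-/- cell 10 and WT cell 2 and was seen in 10 cells. Klf2 had 992 counts in Tnmd-/- cell 9, 940 in WT cell 10, 43 in Tnmd-/- cell 10 and at most 3 elsewhere. Klf10, induced by TGF-beta, had 1789 counts in Tnmd-/- cell 10 and 778 in Tnmd-/- cell 20, and 0 to 9 in the other 10 cells.

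Atf4, the translationally controlled factor of the integrated stress response, had the lowest share of its counts in its top cell of the 42 (20.8%). It lay between 1191 and 2509 CPM in 9 cells, at 138 and 37.0 CPM in Tnmd-/- cells 3 and 7, and had 6 counts (1.33 CPM) in WT cell 14. Those 3 cells include the 2 with the fewest counts, while WT cell 14 had 4516036. Myc, the growth-promoting factor, was high in 4 cells, with 2867 and 1700 counts in Tnmd-/- cells 9 and 10 and 2577 and 1294 in WT cells 5 and 10, and at most 45 elsewhere. Csrnp1, an Axin-induced nuclear protein, had 4644, 1949 and 433 counts in Tnmd-/- cells 9, 10 and 7 and 3919, 1117, 2200 and 1386 in WT cells 4, 5, 2 and 14, and at most 4 in the other 5 cells. Cebpb and Cebpd, factors of the acute phase response, were low, with a maximum of 165 and 754 counts, both in WT cell 1.

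Among the early response proteins, Ier3, a regulator of survival, was high in both genotypes. It ran from 332 to 691 CPM in 5 Tnmd-/- cells and was 4.65 CPM in the sixth, cell 3, while the WT cells ran from 0.722 CPM in cell 4 to 2078 CPM in cell 14. Ier2 was seen in 6 cells, with 748 counts in WT cell 10, 495 in Tnmd-/- cell 1, 206 in WT cell 1 and 193 in Tnmd-/- cell 7. Ier5 had 3004, 1188, 207 and 716 counts in Tnmd-/- cells 9, 10, 20 and 7 and 643 and 73 in WT cells 10 and 1, with at most 5 in the other 6.

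The inhibitors that end the response were unevenly shared out. Zfp36, which destabilizes AU-rich mRNAs, had 472, 821 and 146 counts in Tnmd-/- cells 9, 1 and 7 and 911 and 36 in WT cells 1 and 2. All 5 of these were Egr1 cells. Its relative Zfp36l1 had 3125, 246 and 132 counts in WT cells 10, 4 and 14 and at most 1 in every other cell, and 55.9% of its exon bases overlap a gene on the opposite strand. No cell had at least 10 counts of both. Dusp1, a phosphatase that switches off MAP kinases, was seen in 5 WT cells at 285 to 3819 counts and in Tnmd-/- cell 9 at 2098, and had at most 6 counts in each of the other 5 Tnmd-/- cells and 0 in WT cell 4. Dusp6, the ERK phosphatase, was high in Tnmd-/- cell 9 (6510 counts) and WT cell 2 (3263) and at most 13 elsewhere. Socs3, the feedback inhibitor of cytokine receptors, stayed at or under 161 counts.

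Btg1 was seen in every cell, at 37.0 to 443 CPM in the Tnmd-/- and 2.44 to 534 CPM in the WT cells. Its relative Btg2, also antiproliferative and a target of p53, had 1150, 1076 and 1838 counts in WT cells 4, 5 and 10 and at most 2 in each of the other 9 cells. The 3 Gadd45 genes, growth arrest and DNA damage proteins that bind stress kinases, each had a pattern of their own. Gadd45a had 2538, 2446 and 2437 counts in WT cells 4, 5 and 10 (203, 204 and 179 CPM), 820 and 142 in Tnmd-/- cells 20 and 1 and at most 7 elsewhere. Gadd45b reached 8046 counts in Tnmd-/- cell 9 and 4108 in Tnmd-/- cell 3, where that was 2730 CPM, and 3287 and 2050 in WT cells 4 and 10. Gadd45g was seen in all 6 WT cells at 60.4 to 1831 CPM and in 4 Tnmd-/- cells at 5.46 to 496 CPM. Mcl1, a survival protein of the Bcl2 family, had 6542 counts in WT cell 5, 981 in Tnmd-/- cell 1 and at most 543 elsewhere.

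Secreted products were scarce. Cxcl1, a neutrophil chemokine, had 2256, 5374 and 3636 counts in WT cells 4, 5 and 10 and at most 7 in the other 9 cells. Ptgs2, the inducible cyclooxygenase, had 1274 counts in WT cell 5 and 3 in Tnmd-/- cell 20 alone, and the cytokines Il6 and Ccl2 had none. Sgk1 ran from 31.4 to 1628 CPM in the Tnmd-/- cells and from 4.97 to 2146 CPM in the WT cells. Per1, a clock gene that glucocorticoids induce, and Rhob, an early response GTPase, had 394 and 187 counts in Tnmd-/- cell 9 and 0 in every other cell.

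Between the genotypes, 10 of the 42 genes with at least 20 counts were at least 2-fold higher in the pooled Tnmd-/- cells, 14 were at least 2-fold lower and 18 lay within 2-fold. This measure pools the counts of the 6 cells per genotype and adds 1 CPM to each level. Among all 9768 genes 35.5% were higher and 34.9% lower by this measure, beside 23.8% and 33.3% of the 42. The share of lower genes depended on the scaling: it was 42.9% against 36.4% of all genes with equal weights, 40.5% against 38.2% with TMM factors and 54.8% against 38.7% with DESeq2 size factors, which called 9 higher and 23 lower. By pooled counts the median log2 ratio of the 42 was -0.04, against 0.06 for all genes. The higher genes were Fosb, Egr1, Ier5, Klf6, Klf10, Zfp36, Dusp6, Gadd45b, Per1 and Rhob, and Tnmd-/- cell 9 had the most counts of any cell for 8 of the 10. The lower genes were Fosl2, Junb, Egr2, Nr4a1, Zfp36l1, Btg2, Dusp1, Socs3, Cebpd, Gadd45a, Gadd45g, Mcl1, Ptgs2 and Cxcl1. For none of the 46 did the cells of the genotypes separate without overlap, as 0.0205% of all genes did in the higher and 0.0205% in the lower direction. Without Tnmd-/- cell 9, 4 genes stayed at least 2-fold higher (Fosb, Ier5, Klf10 and Zfp36) and 19 were lower (45.2%, against 36.7% of all genes). Without WT cell 1, Junb, Egr2 and Cebpd were no longer lower.

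Pooled ratios of single genes without the added CPM show the same dependence. The log2 ratio was 5.82 for Fosb, with 93.5% of all Fosb counts in Tnmd-/- cell 9, and 1.66 without that cell. Klf10 had a log2 ratio of 8.35, and Ier5 one of 3.43, which was 2.66 without Tnmd-/- cell 9. Per1 and Rhob, at 0 in the WT sum, had log2 ratios of at least 7.64 and 6.57 against a floor of 3 counts in that sum. At the other end stood Zfp36l1 (-10.17), Btg2 (-9.38), Cxcl1 (-8.60) and Ptgs2 (-8.12), whose Tnmd-/- sums were 2, 4, 19 and 3 counts, and Nr4a1 (-4.69), with 97.0% of its counts in WT cell 14 and a ratio of 2.63 without it. Exact 95% intervals, which cover counting error only, ran from -13.21 to -8.31 for Zfp36l1, from -11.26 to -8.02 for Btg2 and from -10.40 to -6.57 for Ptgs2. Klf6 stood at 1.36, Egr1 at 1.27, Gadd45a at -2.32, Gadd45g at -1.47 and Dusp1 at -1.58. Without Tnmd-/- cell 9 these were 0.18 for Klf6, 0.34 for Egr1, -3.60 for Gadd45g and -8.80 for Dusp1, without WT cell 1 the value for Egr1 was 2.32, without WT cell 2 it was -0.99 for both Gadd45g and Dusp1, and without Tnmd-/- cell 20 that for Gadd45a was -4.69.

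Within the less degraded cells, 3 against 3, 15 of the 42 were at least 2-fold higher in the Tnmd-/- and 10 lower, against 28.3% and 31.2% of all genes, with a median log2 ratio of 0.49. Tnmd-/- cell 9 held all or nearly all of these Tnmd-/- counts for Fos, Fosb, Junb, Egr1, Nr4a1, Zfp36, Dusp6, Per1 and Rhob. For Ier3 and Klf10, also higher, cell 10 held the most. The comparison within this level was not repeated without cell 9. Every Tnmd-/- cell lay above every WT cell for 1 gene, Ier3, and below for 3, Btg2, Gadd45a and Cxcl1, where the shares of all genes were 2.55% and 2.67%. Ier3 was at 405, 484 and 412 CPM in the Tnmd-/- and at 0.722, 256 and 196 CPM in the WT cells. Within the more degraded cells 12 were higher and 15 lower, against 29.6% and 25.6%, with a median of -0.13. There every Tnmd-/- cell lay above every WT cell for Gadd45a and below for Nr4a1, Klf4, Dusp1 and Gadd45g, where the shares of all genes were 2.89% and 1.48%. For Nr4a1 the separation rests on 2 counts in WT cell 2 against 0 in the Tnmd-/- cells of this level. For Gadd45a the sums were 151 Tnmd-/- and 1 WT counts, with most of the Tnmd-/- counts in cell 1. Klf4 was at 108, 55.2 and 158 CPM in these Tnmd-/- cells and at 2219, 415 and 427 CPM in the WT cells, and it went the other way in the less degraded cells, at 361, 331 and 42 against 59.2, 8.57 and 77.5 CPM.

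The levels therefore disagreed for many genes. In both levels Fosb, Ier5, Zfp36 and Gadd45b were at least 2-fold higher and Zfp36l1 at least 2-fold lower in the Tnmd-/- cells, which is 9.52% of the 42 against 6.83% of all genes and 2.38% against 6.97%. In 11 of the 42 (26.2%) the ratio was past 2-fold in opposite directions, against 12.9% of all genes: Fos, Junb, Ier2, Nr4a1, Klf4, Klf6, Btg1, Dusp6, Gadd45a, Mcl1 and Cxcl1. The shares were not matched for the number of cells in which a gene was seen, at the median 5 for the 42 and 2 for all genes. The log2 ratio of Fos was 10.13 in the less and -5.88 in the more degraded cells, and that of Gadd45a was -2.70 and 8.23. With 3 cells in a group each such sum can come from 1 cell, as for Fos, where it was Tnmd-/- cell 9. For Cxcl1 the higher value in the more degraded Tnmd-/- cells rests on 8 counts, 4 each in cells 3 and 7, against 0.

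**Figure D4:**
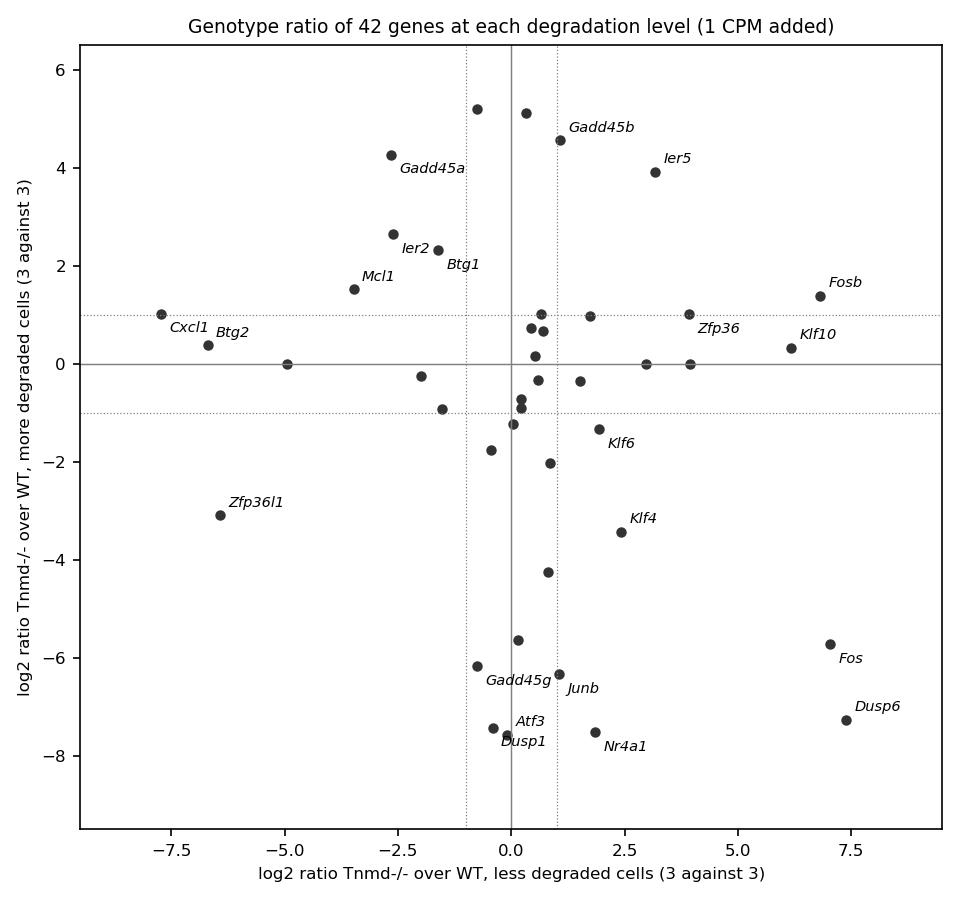
Each point is 1 of the 42 genes with at least 20 counts, with its log2 ratio of Tnmd-/- over WT in the less degraded cells on the horizontal and in the more degraded cells on the vertical axis (counts pooled over 3 cells, 1 CPM added, dotted lines at 2-fold). Points in the upper left and lower right corners, 11 genes past 2-fold in both, changed direction between the levels, and the upper right and lower left corners hold Fosb, Ier5, Zfp36, Gadd45b and Zfp36l1.

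Between the degradation levels, with both genotypes pooled, 17 of the 42 were at least 2-fold higher in the less degraded cells and 12 lower, against 43.2% and 32% of all genes. The median log2 ratio of less over more degraded was 0.24, against 0.49 for all genes. Fosl1, Nr4a2, Myc, Sgk1, Btg2, Gadd45a and Cxcl1 were among those higher in the less degraded cells, and Fos, Junb, Egr1, Egr2, Ier2, Ier3, Nr4a1, Klf4, Zfp36, Dusp1, Cebpb and Cebpd were lower. The 12 core genes had a median of -1.34, with 3 higher and 7 lower. Within genotypes the core median was -1.84 in the WT and 2.06 in the Tnmd-/- cells, and each rests on 1 cell. It was -1.34 without Tnmd-/- cell 9, the one less degraded Tnmd-/- cell with 10 core genes seen where cells 10 and 20 had 1, and 0.095 without WT cell 1.

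Within the Tnmd-/- cells 22 of the 42 were higher in the less degraded and 7 lower, against 35.7% and 26.6% of all genes, with a median of 1.20. Several of the 22 rest on 1 cell. Of the less degraded Tnmd-/- counts, cell 9 held 4012 of 4013 for Fos, 1526 of 1529 for Jun and 2098 of 2099 for Dusp1. It held all 6510 for Dusp6, while cell 10 held 5736 of 5748 for Atf3. These counts of genes were not repeated within the genotype without cell 9. Within the WT cells 16 were higher and 14 lower, against 37.5% and 22.4%, with a median of 0. In both genotypes Fosl2, Jun, Klf2, Myc and Sgk1 were higher in the less degraded cells, and Egr1, Zfp36, Cebpb and Cebpd were lower. That is 11.9% of the 42 against 12.6% of all genes higher in both, and 9.52% against 5.42% lower in both, while 26.2% against 13.5% went opposite ways in the genotypes. These shares too were not matched for the number of cells in which a gene was seen. Cells separated without overlap in the Tnmd-/- genotype for Sgk1, higher in the less degraded, and for no gene in the lower direction, where 4.15% and 1.78% of all genes did. In the WT genotype Fosl1, Klf10, Btg1, Btg2, Gadd45a and Cxcl1 separated in the higher and Fos, Nr4a1 and Klf4 in the lower direction, against 5.33% and 1.72%. Klf10 had 9, 2 and 1 counts in the less degraded and 0 in the more degraded WT cells, so this separation rests on single reads.

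Whether the genes go together over cells was described with Spearman's rank correlation of log2(CPM + 1) over the 12 cells, for the 26 genes seen in at least 4 cells. The points share libraries and differ in depth. Over the 325 pairs the median correlation was 0.085, against 0.049 over all pairs of the 3191 genes that passed the same filter. Correlations of 0.5 or more made up 8.00% of the pairs, against 7.53%. The 9 of the 12 core genes that passed the filter had a median of 0.25 over 36 pairs, and 25% of those pairs were at 0.5 or more. With single cells left out, the core median ran from 0.12 (without WT cell 1) to 0.35 (without Tnmd-/- cell 7). The lowest of 15 alternatives, chosen after seeing the data, was 0.066.

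The highest values lay among Fos, Egr1, Zfp36, Ier2 and Ier5. The rank correlation was 0.85 for Egr1 and Zfp36, 0.80 for Fos and Egr1, 0.74 for Ier2 and Zfp36, 0.74 for Ier2 and Ier5 and 0.74 for Fos and Klf4. Both genes of these pairs were seen in 5, 3, 4, 5 and 4 cells, in that order. Apart from Klf4, many of the ranks thus came from cells with under 10 counts. WT cell 14 had 2843 Fos and 4 Egr1 counts, and WT cell 10 had 3 and 2521. A second set joined Fosl1 with Nr4a2 (0.73) and Btg1 (0.70), and single pairs stood apart, Atf3 with Klf9 at 0.70 and Klf6 with Gadd45b at 0.70. The lowest values were -0.82 for Klf4 and Gadd45a and -0.69 for Fosb and Atf3, which were never seen in the same cell. Over the 37 pairs of genes with the same role the median was 0.071. By promoter motif, the median was 0.004 over 78 pairs where both genes had the core element TGACG and -0.05 over 36 pairs where neither had it, and 0.063 over 21 pairs sharing the Egr site. It was 0.25 over the 6 pairs sharing the NF-kB site, against 0.096 over 153 pairs without it, and the single pairs that shared the AP-1 site and the whole cAMP response element were at 0.27 and -0.16. For the 3′ UTR element TATTTAT the medians were 0.077 over 105 pairs with it in both and 0.096 over 55 pairs with it in neither.

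**Figure D5:**
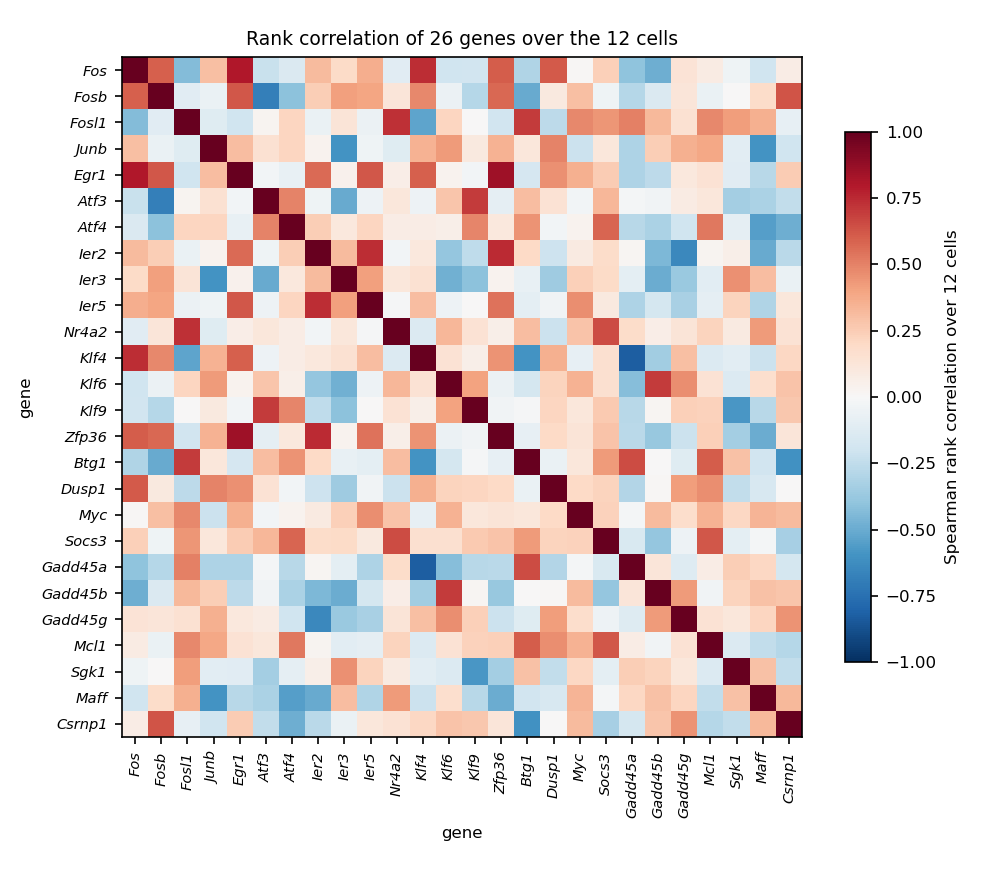
The matrix shows Spearman's rank correlation of log2(CPM + 1) over the 12 cells for each pair of the 26 genes seen in 4 or more cells. Red cells gather where Fos, Fosb, Egr1, Ier2, Ier5, Klf4 and Zfp36 meet, most of the matrix is pale, and Klf4 with Gadd45a at -0.82 is the deepest blue.

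Other immediate early genes, a list of 45 that does not overlap the 46, had 32 with at least 20 counts. Of these 17 (53.1%) were at least 2-fold higher in the pooled Tnmd-/- cells and 9 (28.1%) lower, with a median log2 ratio of 1.01, on the same measure whose background was 35.5% and 34.9%. Split by degradation level, this median was 1.07 in the less and 0.088 in the more degraded cells, against 0 for all genes in both. Ppp1r15a, which reverses eIF2 phosphorylation, and Nfkbia, the NF-kB inhibitor, were seen in all 12 cells, at pooled log2 ratios of 1.02 and 1.78. Nfkbia had 58.6% of its counts in Tnmd-/- cell 9. The highest ratios among genes seen in at least 4 cells were those of Sertad1 (6.22), the Notch target Hes1 (3.46) and Nfkbiz (3.23), and the lowest those of Phlda1 (-6.12), Klf13 (-4.11) and Ccn2 (-2.19), the connective tissue growth factor. Sertad1 had 63.4% of its counts in Tnmd-/- cell 10 and Phlda1 94.3% in WT cell 2.

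The signalling genes upstream were measured too. Of 36 genes of the Srf, Creb, MAP kinase and cytokine receptor pathways 30 had at least 20 counts, with 14 higher (46.7%), 7 lower (23.3%) and a median of 0.82. Split by level, that median was 0 in the less and 0.45 in the more degraded cells. Srf itself and its partner Elk1 had 0 counts in every cell. Among the highest were the cytokine receptor subunit Il6st (1.73) and the coactivator Crebbp (1.68), and Elk4 (-0.84), Creb1 (-0.59) and Prkacb (-0.54) were lowest among those seen in at least 4 cells. Around Atf4, 16 of 20 genes listed for the integrated stress response had at least 20 counts, of which 5 were higher (31.2%) and 7 lower (43.8%), with a median of -0.47. That list also holds Xbp1, Atf6 and Hspa5, which belong to other arms of the response to unfolded protein. The shares over all genes were the 35.5% and 34.9% given above. For the stress response genes the median was 0.35 in the less and -0.36 in the more degraded cells. No ratios of these other lists are given with cells left out or with other factors. Among those seen in at least 4 cells, the amino acid genes Psat1 (2.37), Slc7a11 (2.13) and Asns (1.42) were highest and Atf5 (-3.05), Xbp1 (-1.55) and Atf6 (-1.07) lowest. The chaperone Hspa5 and the stress protein Nupr1 were seen in all 12 cells, while Atf4, as given above, was seen in 11.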

How the data were processed

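The authors picked single cells, amplified their RNA by Smart-Seq2, which tags no molecules, removed non-mouse reads, aligned with STAR 2.5.1b to GRCm38 and counted with featureCounts of Subread 2.0.0. The values they deposited are raw counts per gene and cell. The strand of counting is not given in the sources used here, so overlaps with genes of the opposite strand are stated. Counts were divided by the total of a cell, or of a sum of cells, times 1000000 (CPM). Genes with at least 20 counts over the 12 cells entered summaries, with 1 CPM added before ratios. Intervals are exact Clopper-Pearson intervals at 95%, and a sum of 0 gave a bound against 3 counts. No p-value was computed. The 46 genes, their roles and the other lists were chosen with earlier results of these data known. Members seen in at least 4 cells, and all AP-1, Egr and Nr4a genes, are described by cell, the others by range, with at most 3 genes per direction named from each other list. A gene that this rule picks is not reported here. Promoters came from RefSeq (38 of 46 genes matched) and 3′ UTRs from GENCODE M21. Marker lists of tendon, endothelial, immune, mural, glial, muscle, red blood cell and cartilage genes were summed per cell. Alternatives used edgeR 4.0.16 and DESeq2 1.42.0 factors, equal weights, other totals, filters, added CPM, thinning and cells left out. Scripts were tested on simulated counts and used Python 3.11.15 (scipy 1.17.1, pandas 2.3.3, numpy 2.4.6) and R 4.3.3.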

Additional observations from a re-analysis of the deposited data

Results flagged for a closer look

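In 62 groups of 6 cells, made of per-cell sums and of log2(CPM + 1) of the 26 genes seen in at least 4 cells, 9 had 1 cell far from the other 5. The limit was meant to flag about 1 in 20 groups by chance. That rate was not checked for these values, many of which are either absent or large, in groups that share cells. The 9 flags therefore cannot be weighed against that rate.

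The summed level of the 12 core genes was 4585 CPM in Tnmd-/- cell 7, through Egr1, and 3365 CPM in WT cell 1, each far above the other cells of its genotype. The mitochondrial share of 51.8% in Tnmd-/- cell 3 stood apart in the same way. Among single genes on the log2(CPM + 1) scale, the cell that stood above the others was Tnmd-/- cell 10 for Atf3 (9.12), WT cell 14 for Fosb (4.28), and Tnmd-/- cell 9 for both Junb (3.85) and Dusp1 (7.67). The cell that stood below was WT cell 14 for Atf4 (1.22) and Tnmd-/- cell 3 for Ier3 (2.5).

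For Gadd45a every less degraded Tnmd-/- cell lay below every less degraded WT cell, at a pooled log2 ratio of -2.70, and every more degraded Tnmd-/- cell lay above every more degraded WT cell, at 8.23, where the WT sum was 1 count. The difference between the levels was not tested.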

How the results depend on the processing

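Limits come first. The 6 cells of a genotype are no replicates, depth and degradation level go together, and these amplified reads carry no molecular identifiers, so 1 cell decides many values. With the 6 Tnmd-/- and 6 WT cells each left out in turn, the count of genes at least 2-fold higher ran from 4 (without Tnmd-/- cell 9) to 13 (without WT cell 5), of those lower from 11 to 19, and the median log2 ratio from -0.70 to 0.41. No paired analysis was possible because the cell numbers that the genotypes share only name picked cells and no test was made.

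DESeq2 size factors gave 23 genes lower in the Tnmd-/- cells and a median of -1.19, and, for less over more degraded, 19 lower and a median of -0.52, where all genes had medians of -0.20 and 0.10. Of the genes 7 were lower in the less degraded cells within the Tnmd-/- cells alone. With 1 count as the limit the median number of genes seen per Tnmd-/- cell was 29. With the mitochondrial genes and the 50 most counted genes left out of the totals, the median summed level was 10314 CPM per Tnmd-/- cell and 11720 CPM per WT cell. Leaving out Tnmd-/- cell 9 and WT cell 1 together, chosen after seeing the data, gave a median rank correlation of 0.022. The share of the 42 that was lower in the Tnmd-/- cells lay under that of all genes in the main setting and above it with equal weights, TMM or DESeq2 factors, or without Tnmd-/- cell 9. Other settings also put it above, as the more degraded cells alone (35.7% against 25.6%) and a filter of at least 1 count (33.3% against 25.7%). It lay under in the less degraded cells alone (23.8% against 31.2%). With single cells left out, also chosen after seeing the data, the core median of less over more degraded ran from -1.34 to 3.08 in the Tnmd-/- and from -3.29 to 0.095 in the WT cells. The other alternatives for these results, among them edgeR's TMM factors, equal weights and 5 CPM added, stayed within 1.5 times the count or within the interval of the median.

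Of 42 single gene ratios of Tnmd-/- over WT under 821 alternatives, 27 values changed sign after a ratio past 2-fold. In the less degraded cells alone the log2 ratio was 1.40 for Junb, 0.18 for Egr2, 2.80 for Cebpb, 0.21 for Cebpd and at least 5.04 for Nr4a1. The Cebpb value stood on 5 against 1 counts and the Cebpd value on 5 against 6. Their intervals, -0.36 to 8.36 and -1.84 to 2.19, include 0, as does that of Egr2, -0.08 to 0.43. In the more degraded cells alone it was -1.33 for Klf6, -9.10 for Dusp6, 8.23 for Gadd45a, 1.54 for Mcl1 and at least 2.41 for Cxcl1. Dusp6 was at -0.10 with equal weights, -0.22 with TMM and -1.33 with DESeq2 factors, and Cebpb at 1.15 with TMM and 0.98 with DESeq2 factors. Without Tnmd-/- cell 9 and WT cell 1 it was 0.64 for Egr2, -9.16 for Dusp6, 2.97 for Cebpb and 5.69 for Cebpd. With single cells left out the ratio ran from -8.04 to 1.13 for Fosl2, from -7.96 to 0.0077 for Junb, from -9.05 to 0.14 for Egr2, from -10.34 to 2.63 for Nr4a1, from -8.99 to 8.68 for Dusp6, from -3.99 to 2.47 for Cebpb, from -4.64 to 5.19 for Cebpd and from -3.32 to 1.19 for Mcl1. The cause of these changes was not tested.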
